A study of Mus musculus with 6 samples.

Results

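Glycerophospholipids are the main lipids of cell membranes, and the enzymes that build, edit and break them down were followed here in cultured mouse microglia with and without Cre-mediated deletion in Nr1d1, the gene of the nuclear receptor REV-ERBα. The set held 46 genes, chosen by name from acyltransferases, head-group synthesis, ether lipid synthesis, phosphatases and phospholipases, out of 55487 genes counted in each library. All 46 symbols were found in the files through the GENCODE M21 annotation of GRCm38. The choice used no measured value, but it was made with earlier results of these libraries known, and the study itself drew a heat map of lipid genes from the same libraries, so a direction seen here is not independent evidence.

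New glycerophospholipids are made when acyl chains are added step by step to glycerol-3-phosphate, giving lysophosphatidic acid and then phosphatidic acid, from which phosphatases make diacylglycerol and CDP-diacylglycerol synthases make CDP-diacylglycerol. Choline, ethanolamine or serine head groups are then attached, and the acyl chains are exchanged afterwards in the Lands cycle, in which A-type phospholipases cut off a chain and lysophospholipid acyltransferases put another one back. In macrophages and microglia the same enzymes handle the phospholipid of engulfed membranes and make signalling lipids such as lysophosphatidic acid and platelet-activating factor.

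Each library came from a culture of cortical microglia, shaken off mixed glia that had been grown with GM-CSF. The glia were from mouse pups of postnatal day 1 to 3 on a C57/Bl6J background. The 3 Cre- cultures carried Nr1d1 fl/fl without the CAG::CreERT2 transgene, and the 3 Cre+ cultures carried Nr1d1 fl/fl with it. Both groups received 4-hydroxytamoxifen (4-OHT) at 1.5 µM, for 2 days per the labels, whereas the general culture methods of the study give a shorter exposure. CAG is a promoter active in nearly all cells, so the transgene is not specific to microglia, and the Cre+ group differs from the controls by an active recombinase as well as by the deletion. The labels number the cultures without tying them to pups, so p-values measure the spread between these samples, which may in part be technical.

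The libraries held 87545868 to 93942161 counts in the Cre- group and 93701215 to 110909129 in the Cre+ group. Nr1d1 itself was low, at 2.35, 1.20 and 1.64 CPM (counts scaled to library size) in Cre- replicates 1 to 3 and at 1.00, 0.945 and 1.08 CPM in Cre+ replicates 1 to 3. These values do not overlap, and the log2 fold change was -0.77 ± 0.25 (standard error, SE), with an adjusted p of 0.0945 in edgeR's quasi-likelihood test. Without Cre- replicate 2 it was -0.98 with an adjusted p of 0.0414, and without Cre- replicate 1 it was -0.50 with an adjusted p of 0.313 in the same test. The counts cover exons outside the deleted stretch, so the value is no full check of the labels. Of 11 microglia markers, 10 were expressed and their summed level was 5634 to 5730 CPM in Cre- and 5529 to 5628 CPM in Cre+ libraries, while P2ry12 stayed under 1 CPM in every library. All 8 fibroblast and mural cell markers, 6 of 8 astrocyte markers and 6 of 8 neuron markers were under 1 CPM in every library. The neuron markers summed to 3.35 to 4.19 CPM in Cre- and 2.48 to 2.59 CPM in Cre+ libraries, which do not overlap. The 10 oligodendrocyte lineage markers summed to 106 to 121 CPM in Cre- and 103 to 113 CPM in Cre+ libraries, and none was called. Of these 10, 5 were under 1 CPM in every library and 6 had a lower mean in Cre+ cultures. Mog, Olig1 and Cspg4 were lower in every Cre+ library, and none was higher in every one.

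Of the 46 genes, 44 passed the expression filter of more than 1 CPM in at least 4 libraries, and 6 of these, 13.6%, differed between Cre+ and Cre- cultures at an adjusted p of 0.05 or below. Plpp3, Lpcat2, Lpcat1 and Lpcat3 were lower in Cre+ cultures, and Far1 and Gdpd1 were higher. Over all 11429 genes tested, 5.07% were called, 2.50% higher and 2.56% lower. The log2 fold changes of the 44 genes ran from -0.47 to 0.28 with a median of -0.03, beside a median of 0.00 over all genes, and 19 lay above 0 and 25 below. The values of the groups did not overlap for 13 of the 44 genes, or 29.5%, beside 24.0% of all genes tested. The number of called genes of the set ranged from 3 to 5 when any library was left out, with 3 without Cre- replicate 1. Over all genes, 579 were called, against 376 without Cre+ replicate 2, 317 without Cre+ replicate 3 and 339 without Cre- replicate 3.

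**Figure D1:**
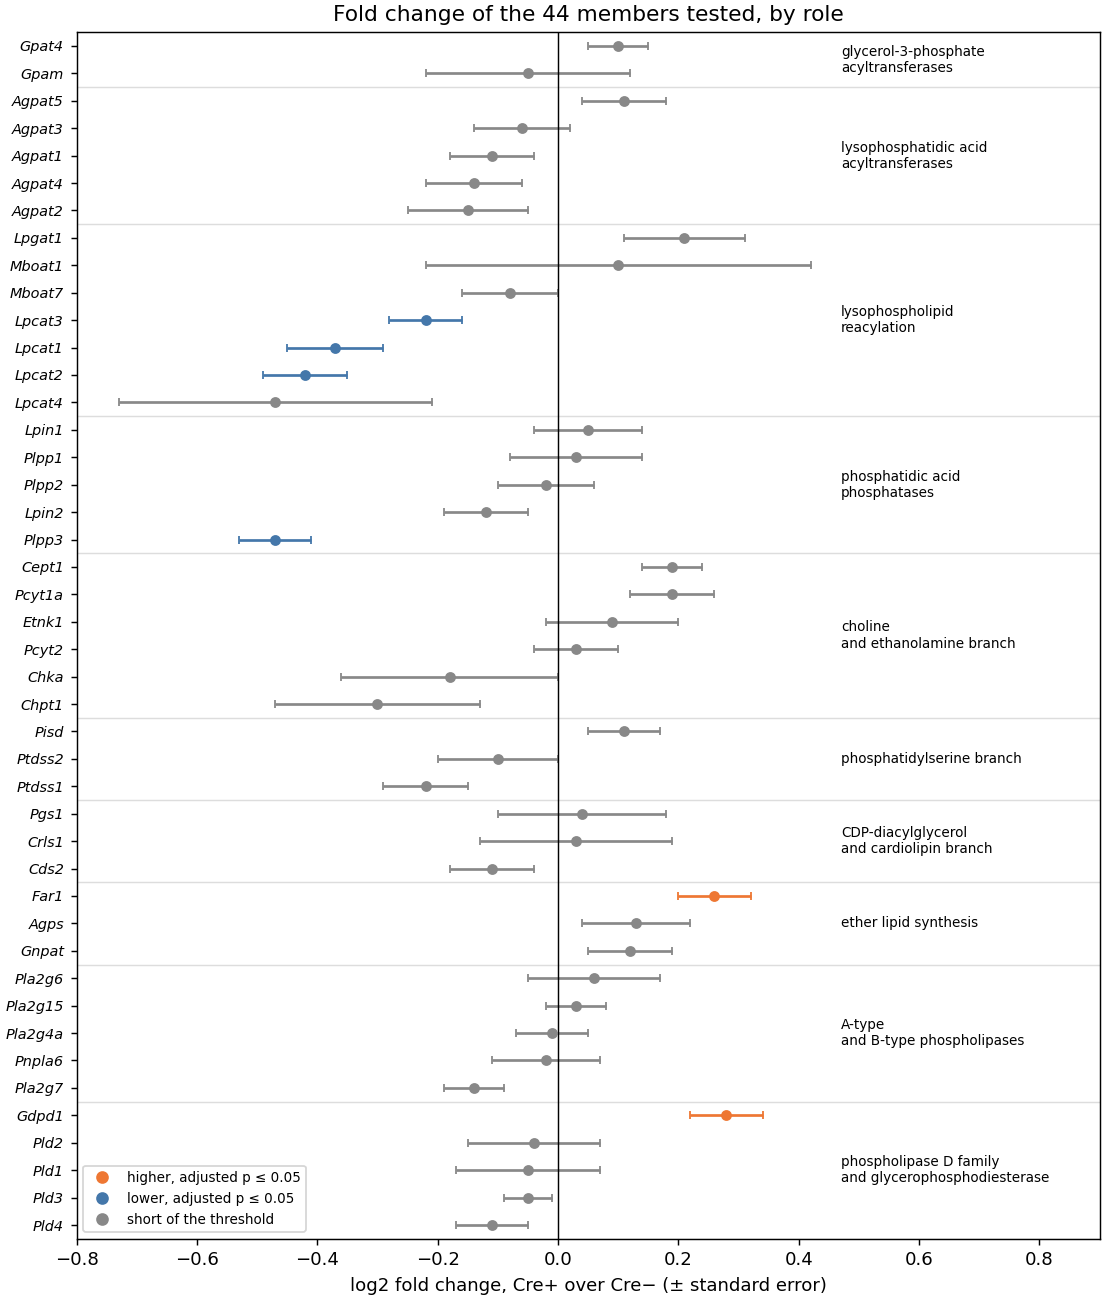
Log2 fold change of Cre+ over Cre- cultures (x axis, points with bars of ± 1 SE) for the 44 genes tested, grouped by role from top to bottom. The 4 genes called lower lie between -0.47 and -0.22, the 2 called higher lie at 0.26 and 0.28, and the other points are grey.

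The upstream sequence of the genes that moved is given here because REV-ERBα binds DNA at a nuclear receptor hexamer, AGGTCA, preceded by an A/T-rich stretch. The RefSeq promoter table on GRCm38.p6 held 58 windows of 250 bases before the start for 41 of the 46 genes, and all 6 called genes were in it. The hexamer AGGTCA was searched on both strands, as were the longer form with a preceding T, written TAGGTCA, and the E-box of the clock activators, written CACGTG. None of these was in the windows of the 6 called genes. For Gdpd1 the bases after the start that places its window were not found in a GENCODE transcript. Sequence outside the windows was not searched, so a site elsewhere would be missed. The hexamer was in 14.0% of all 32851 windows of the table, the longer form, which always contains it, in 2.23% and the E-box in 6.02%. The windows of Plpp3 and Lpcat2, with the largest falls among called genes, and of Far1, which rose, are printed 5′ to 3′ with each CG dinucleotide in capitals. They lie at chr4:105157097-105157346, chr8:92855083-92855332 and chr7:113513584-113513833, all on the plus strand. 
Plpp3: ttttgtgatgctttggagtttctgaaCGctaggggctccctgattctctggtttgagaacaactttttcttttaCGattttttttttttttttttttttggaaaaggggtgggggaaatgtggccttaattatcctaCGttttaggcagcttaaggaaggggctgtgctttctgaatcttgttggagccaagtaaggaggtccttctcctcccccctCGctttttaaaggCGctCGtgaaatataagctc
Lpcat2: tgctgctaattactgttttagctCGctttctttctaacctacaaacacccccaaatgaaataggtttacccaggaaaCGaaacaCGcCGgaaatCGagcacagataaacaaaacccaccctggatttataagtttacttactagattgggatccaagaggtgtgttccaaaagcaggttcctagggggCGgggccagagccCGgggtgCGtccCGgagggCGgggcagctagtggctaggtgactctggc
Far1: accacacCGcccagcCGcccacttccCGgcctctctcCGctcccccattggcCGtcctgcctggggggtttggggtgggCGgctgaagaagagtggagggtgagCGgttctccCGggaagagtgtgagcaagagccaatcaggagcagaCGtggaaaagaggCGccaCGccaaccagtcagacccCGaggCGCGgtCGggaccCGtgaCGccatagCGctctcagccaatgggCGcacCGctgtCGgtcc
The Plpp3 window was A/T-rich, with 6 CG dinucleotides and 42.4% G or C, whereas that of Far1 held 21 and 67.6%. Lpcat2 lay between, with 10 CG dinucleotides and 51.2% G or C, and the median was 6 CG dinucleotides over all windows and 17 over the 58 windows of the set.

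AGGTCA was found in 4 of the 58 windows, and these 4 genes, picked for the match and not for their values, are shown with the hexamer or its complement in capitals. The stretches lie at chr1:149961471-149961516 on the minus strand for Pla2g4a, chr19:55099648-55099693 on the minus strand for Gpam, chr12:16611015-16611060 on the minus strand for Lpin1 and chr17:34608959-34609004 on the plus strand for Agpat1. 
Pla2g4a: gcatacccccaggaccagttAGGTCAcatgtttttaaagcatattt
Gpam: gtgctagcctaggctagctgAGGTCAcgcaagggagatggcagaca
Lpin1: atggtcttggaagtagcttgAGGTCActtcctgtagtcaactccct
Agpat1: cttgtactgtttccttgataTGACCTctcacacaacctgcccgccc
Pla2g4a was the only gene of the set with TAGGTCA in a window, and its log2 fold change was -0.01 ± 0.06 (SE). The log2 fold changes of the other genes with the hexamer were -0.05 ± 0.17 for Gpam, 0.05 ± 0.09 for Lpin1 and -0.11 ± 0.07 for Agpat1, all short of the threshold. The stretches of Gpam, Lpin1 and Agpat1 lie within the bounds of the counted gene, before starts inside it. Pla2g4a, Gpam and Agpat1 each had 2 windows, and the match was not in both. A match in these letters is a description of the sequence and not a measured site.

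The first acylation of glycerol-3-phosphate is carried by the glycerol-3-phosphate acyltransferases, and none of the 2 genes tested was called. Gpat4, an enzyme of the endoplasmic reticulum, held most of the transcript, at 94.2% to 95.8% of the summed FPKM, the deposited level scaled to gene length and library size, of the 3 genes in each library. Its levels were 81.0, 85.4 and 79.8 CPM in Cre- and 87.4, 84.2 and 91.3 CPM in Cre+ cultures. The groups overlap, with a log2 fold change of 0.10 ± 0.05. Gpat3 was below the filter, with 66, 48 and 84 counts in Cre- and 45, 54 and 75 counts in Cre+ libraries, and 37.4% of its exonic bases are shared with other genes.

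The next step is the acylation of lysophosphatidic acid to phosphatidic acid, and none of the 5 Agpat genes passed the threshold. Agpat1, the most abundant by mean FPKM, was at 31.6, 31.9 and 34.1 CPM in Cre- cultures. In Cre+ cultures it was at 31.6, 29.5 and 29.2 CPM. The highest Cre+ value touches the lowest Cre- value at this precision. Log2 fold changes of the family ran from -0.15 for Agpat2 to 0.11 for Agpat5, with 4 below 0. Only Agpat2 had groups that did not overlap within the family. The summed FPKM of the 5 genes was 33.2, 32.9 and 31.6 in Cre- and 31.5, 29.3 and 31.0 in Cre+ cultures, and these do not overlap.

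Reacylation of lysophospholipids, the second limb of the Lands cycle, held 3 of the 6 called genes, all lower in Cre+ cultures. Of 7 genes tested in this role, 3 were lower, none was higher and 4 fell short of the threshold, with a median log2 fold change of -0.22. Lpcat2, at chr8:92855339-92919279 (plus strand), reacylates lysophosphatidylcholine and also makes platelet-activating factor in inflammatory cells. It was at 32.8, 32.8 and 32.2 CPM in Cre- cultures and at 22.8, 25.8 and 24.8 CPM in Cre+ cultures. Every Cre+ value was below every Cre- value, by a wide margin against the spread within the groups. The level fell by 25.1%, a log2 fold change of -0.42 ± 0.07 with an adjusted p of 0.00262 in edgeR's quasi-likelihood test, and the call held when any of the 6 libraries was left out. Of its exonic bases 8.47% are shared with Gm45472, which reached at most 76 counts in any library.

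Lpcat1, at chr13:73467197-73516422 (plus strand), is the relative known for the dipalmitoyl phosphatidylcholine of lung surfactant and also has platelet-activating factor activity. It was at 22.0, 19.6 and 21.5 CPM in Cre- and at 16.8, 15.6 and 16.4 CPM in Cre+ cultures. The groups did not overlap, and the lowest Cre- culture was replicate 2. The level fell by 22.7%, with a log2 fold change of -0.37 ± 0.08 and an adjusted p of 0.0163 in edgeR's quasi-likelihood test. That call was lost without Cre+ replicate 2, Cre+ replicate 3, Cre- replicate 1 or Cre- replicate 3, where adjusted p ran from 0.0541 to 0.0683. The log2 fold change stayed between -0.42 and -0.34 over the fits that left out a library.

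Lpcat3, at chr6:124663027-124704418 (plus strand), places polyunsaturated chains such as arachidonate into phosphatidylcholine and phosphatidylethanolamine, and was the most abundant acyltransferase of this role. It was at 67.0, 69.3 and 66.1 CPM in Cre- and at 61.0, 55.7 and 57.6 CPM in Cre+ cultures. No values overlapped, although the fall was smaller than that of Lpcat1 or Lpcat2. The level fell by 13.9%, with a log2 fold change of -0.22 ± 0.06 and an adjusted p of 0.0362 in edgeR's quasi-likelihood test. The call was lost when any library other than Cre+ replicate 1 was left out (adjusted p from 0.0613 to 0.133). It was also lost with the looser filterByExpr filter (0.121) and with no filter (0.368). In those fits the median log2 fold change of the 11429 genes of the main test was 0.05 and 0.08, beside 0.00. Lpcat3 shares 10.2% of its exonic bases with Emg1 on the other strand, whose log2 fold change was 0.11, the opposite sign. Emg1 was not called (adjusted p 0.358 in edgeR's quasi-likelihood test).

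Lpcat4, the fourth LPCAT gene, was scarce, with 1.03, 1.31 and 1.40 CPM in Cre- and 1.08, 0.580 and 1.04 CPM in Cre+ cultures. Its log2 fold change of -0.47 ± 0.26 was as large as that of Plpp3 but had an adjusted p of 0.356 in edgeR's quasi-likelihood test, and the groups overlap. The summed FPKM of the 4 LPCAT genes was 35.1, 35.0 and 33.8 in Cre- and 29.1, 28.0 and 28.4 in Cre+ cultures. The sum was lower in every Cre+ culture, and Lpcat3 made up 58.0% to 59.6% of it in Cre- and 60.4% to 63.5% in Cre+ cultures.

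The other reacylating enzymes were not called. Lpgat1, which acts on lysophosphatidylglycerol and lysophosphatidylethanolamine, had a log2 fold change of 0.21 ± 0.10. Mboat7, which adds arachidonate to lysophosphatidylinositol, had one of -0.08 ± 0.08, and the value for the scarce Mboat1 was 0.10 ± 0.32. None of these passed the threshold. Mboat2 was below the filter, with 26, 18 and 24 counts in Cre- and 25, 16 and 4 counts in Cre+ libraries.

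**Figure D2:**
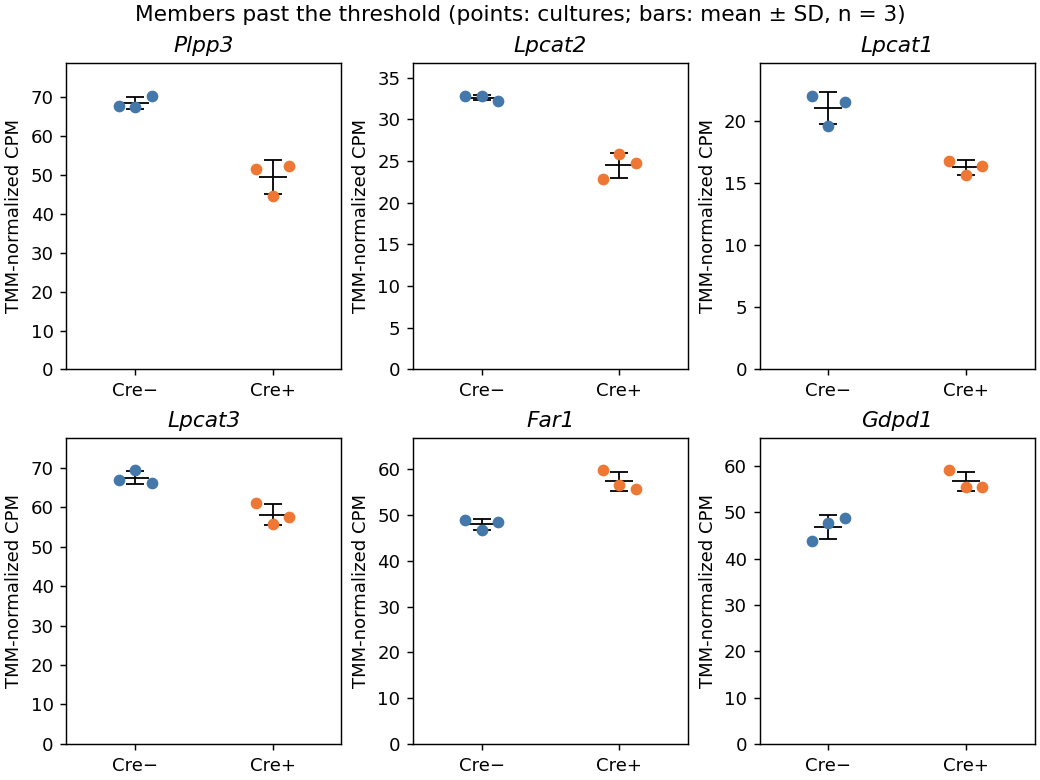
TMM-normalized CPM (y axis from 0) of the 6 called genes in 3 Cre- and 3 Cre+ cultures, points being cultures and bars the mean ± SD (n = 3). In each panel the groups do not overlap, with Cre+ cultures below for Plpp3, Lpcat2, Lpcat1 and Lpcat3 and above for Far1 and Gdpd1.

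Plpp3, at chr4:105157347-105232764 (plus strand), had the lowest adjusted p of the whole set. It encodes a phosphatase that removes the phosphate of lysophosphatidic acid, phosphatidic acid and sphingosine-1-phosphate, in part at the cell surface. The gene was at 67.8, 67.5 and 70.4 CPM in Cre- and at 51.7, 44.6 and 52.3 CPM in Cre+ cultures. Every Cre+ culture lay well below every Cre- culture, and Cre+ replicate 2 was the lowest. The level fell by 27.8%, a log2 fold change of -0.47 ± 0.06 with an adjusted p of 0.000509 in edgeR's quasi-likelihood test, and the call held without any 1 of the 6 libraries.

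Plpp3 is also expressed in astrocytes and in cells of vessel walls, so the markers of those cells are given beside it. The 8 astrocyte markers summed to 43.0 to 47.4 CPM in Cre- and 42.1 to 47.9 CPM in Cre+ libraries, which overlap, but this sum is nearly all Aldoc and Aldh1l1. Of the 6 astrocyte markers under 1 CPM, 5 had a lower mean in Cre+ cultures, the same direction as Plpp3, and Gja1, Slc1a2 and Aqp4 were lower in every Cre+ library. Gja1 had means of 0.681 CPM in Cre- and 0.290 CPM in Cre+ cultures. The 8 fibroblast and mural cell markers summed to 1.79 to 2.81 CPM in Cre- and 0.958 to 1.22 CPM in Cre+ libraries, which do not overlap and are lower in Cre+ cultures, with 7 of the 8 means lower. The 6 endothelial markers summed to 20.3 to 22.5 CPM in Cre- and 24.1 to 27.5 CPM in Cre+ libraries, a rise that lay in Flt1, which was called higher. The other 5 endothelial markers had lower means in Cre+ cultures, and of these Pecam1, at means of 0.468 and 0.268 CPM, did not overlap between the groups. Under looser filters Stmn2, a neuron marker, was called lower (adjusted p 0.0202 with filterByExpr and 0.0058 with no filter), as was Col1a1 with no filter (0.0339). Among border macrophage markers, Mrc1 was called higher and Pf4 lower, and the part of any of these cell types in the results was not tested. In bulk RNA, fewer cells of a type and less RNA per cell cannot be told apart.

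The other phosphatases of the role fell short of the threshold. Plpp1 and Plpp2, close relatives with overlapping substrates, had log2 fold changes of 0.03 ± 0.11 and -0.02 ± 0.08. Lpin1 and Lpin2, the cytosolic phosphatidic acid phosphatases that supply diacylglycerol, had values of 0.05 ± 0.09 and -0.12 ± 0.07. Over all 6 PLPP genes, 3 of them outside the set, the share of Plpp3 in the summed FPKM was 36.8%, 35.5% and 37.8% in Cre- and 31.6%, 27.1% and 31.0% in Cre+ cultures. That share was lower in every Cre+ culture, as was the family sum, at 58.0, 59.1 and 57.3 FPKM in Cre- and 51.2, 51.8 and 52.7 FPKM in Cre+ cultures. Plpp4 and Plpp5, outside the set, had log2 fold changes of -0.08 ± 0.10 and 0.03 ± 0.10, and Plpp6 was below the filter.

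**Figure D3:**
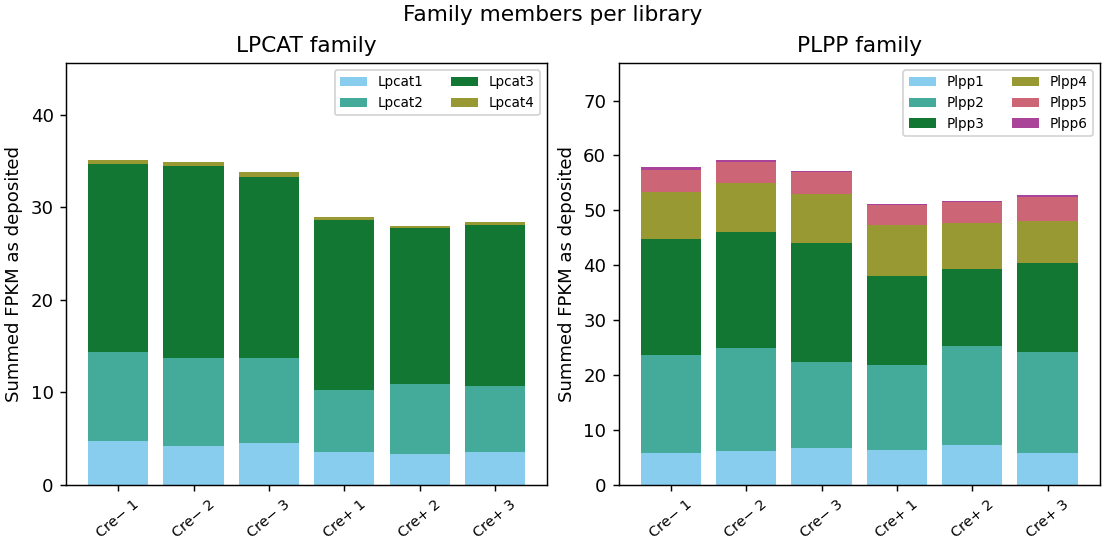
Summed FPKM as deposited (y axis from 0) of the 4 LPCAT genes (left) and the 6 PLPP genes (right) in each library, each colour being a gene. The LPCAT sum is 33.8 to 35.1 in Cre- and 28.0 to 29.1 in Cre+ libraries, and in the PLPP panel the Plpp3 segment is shorter in every Cre+ library.

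The choline and ethanolamine branch, in which head groups are phosphorylated, activated with CTP and transferred to build phosphatidylcholine and phosphatidylethanolamine, had no called gene among 6 tested. Cept1, the phosphotransferase of the last step for both head groups, was the most abundant, at 80.0, 84.0 and 81.0 CPM in Cre- and 97.7, 88.7 and 93.6 CPM in Cre+ cultures. All Cre+ values were above all Cre- values. The log2 fold change of 0.19 ± 0.05 had an adjusted p of 0.0501 in edgeR's quasi-likelihood test, just outside the threshold. Cept1 was called without Cre+ replicate 2 (0.0472), but not when any other library was left out (adjusted p from 0.0779 to 0.183). It shares 24.9% of its exonic bases with Dennd2d and Dram2, so reads of these genes cannot be told apart in the shared stretches. Dennd2d and Dram2 had log2 fold changes of 0.37 and 0.11, and neither was called (adjusted p 0.2 and 0.258 in edgeR's quasi-likelihood test).

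Pcyt1a, the rate-limiting enzyme of phosphatidylcholine synthesis, which makes CDP-choline, also had groups that did not overlap, with a log2 fold change of 0.19 ± 0.07 and an adjusted p of 0.16 in edgeR's quasi-likelihood test. Pcyt2, its counterpart for ethanolamine, was at 0.03 ± 0.07 and the ethanolamine kinase Etnk1 at 0.09 ± 0.11. The choline kinase Chka and the cholinephosphotransferase Chpt1 were scarce, with log2 fold changes of -0.18 ± 0.18 and -0.30 ± 0.17. The summed FPKM of the branch was 49.9, 49.0 and 46.5 in Cre- and 54.7, 51.3 and 54.2 in Cre+ cultures, and these do not overlap. Cept1 alone made up 51.2% to 56.6% of this sum, and no gene of the branch was called.

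Phosphatidylserine is made by base exchange and turned into phosphatidylethanolamine in mitochondria, and none of the 3 genes of this branch was called. Ptdss1, the synthase that uses phosphatidylcholine, had log2 fold change -0.22 ± 0.07 with groups that did not overlap and an adjusted p of 0.072 in edgeR's quasi-likelihood test. Pisd, the mitochondrial decarboxylase, was at 53.7, 55.3 and 52.0 CPM in Cre- and 54.9, 58.1 and 60.4 CPM in Cre+ cultures. The groups overlap, and 20.9% of its exonic bases are shared with other genes, besides near copies such as Pisd-ps1. Ptdss2, which uses phosphatidylethanolamine, was at -0.10 ± 0.10 on the log2 scale.

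In the CDP-diacylglycerol branch, which leads to phosphatidylinositol and to cardiolipin, no gene of 3 passed the threshold. Cds2, the CDP-diacylglycerol synthase, was at 41.5, 42.4 and 40.1 CPM in Cre- and 41.1, 36.3 and 37.1 CPM in Cre+ cultures. The groups overlap through Cre+ replicate 1. Pgs1 and the cardiolipin synthase Crls1 had log2 fold changes of 0.04 ± 0.14 and 0.03 ± 0.16.

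The 3 genes of ether lipid synthesis all had higher values in every Cre+ culture than in any Cre- culture, where 24.0% of all genes tested do not overlap in either direction, and only Far1 passed the test. Far1, at chr7:113513834-113571511 (plus strand), makes the fatty alcohol for the ether bond and is the rate-limiting reductase of plasmalogen synthesis. It was at 48.8, 46.6 and 48.5 CPM in Cre- and at 59.7, 56.5 and 55.7 CPM in Cre+ cultures. The highest value was that of Cre+ replicate 1. The level was higher by 19.5%, with a log2 fold change of 0.26 ± 0.06 and an adjusted p of 0.0163 in edgeR's quasi-likelihood test. The call was lost without Cre+ replicate 1 (adjusted p 0.0741) or Cre- replicate 2 (0.065), and the antisense gene Far1os reached at most 8 counts.

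Gnpat, the peroxisomal acyltransferase that starts the pathway, was at 27.9, 29.3 and 29.2 CPM in Cre- and at 31.2, 32.1 and 30.2 CPM in Cre+ cultures. Its log2 fold change was 0.12 ± 0.07, and that of Agps, which swaps the acyl chain for the alcohol, was 0.13 ± 0.09, with adjusted p of 0.376 and 0.485 in edgeR's quasi-likelihood test. The summed FPKM of the 3 genes was 15.2, 15.1 and 15.1 in Cre- and 17.5, 17.4 and 16.6 in Cre+ cultures. Later genes of the route did not pass the threshold, among them Selenoi at 0.15 ± 0.08 and the desaturase gene Tmem189 at -0.10 ± 0.06 on the log2 scale. Tmem189 shares 30.8% of its exonic bases with other genes. Tmem86a, a lysoplasmalogenase gene of breakdown, was not called either, at -0.16 ± 0.06. Its values were lower in every Cre+ culture than in any Cre- culture.

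Among A-type and B-type phospholipases, which cut acyl chains from phospholipids, none of 5 genes was called. Pla2g15, the phospholipase of the lysosome, was the most abundant, at 197, 215 and 218 CPM in Cre- and 209, 212 and 223 CPM in Cre+ cultures. The groups overlap almost fully, with a log2 fold change of 0.03 ± 0.05. Pla2g7, which inactivates platelet-activating factor and oxidized phospholipids, was at 162, 171 and 172 CPM in Cre- and 151, 150 and 158 CPM in Cre+ cultures. These values do not overlap, and the log2 fold change of -0.14 ± 0.05 had an adjusted p of 0.114 in edgeR's quasi-likelihood test. The cytosolic Pla2g4a, which frees arachidonate, the calcium-independent Pla2g6 and the lysophospholipase Pnpla6 lay between -0.02 and 0.06.

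The phospholipase D family and Gdpd1 closed the set with 1 gene called of 5. Gdpd1, at chr11:87033867-87074062 (minus strand), encodes a lysophospholipase D that can release lysophosphatidic acid from lysophospholipids. It was at 43.8, 47.7 and 48.8 CPM in Cre- and 59.0, 55.4 and 55.5 CPM in Cre+ cultures. All Cre+ cultures were above all Cre- cultures, with Cre- replicate 1 the lowest. The log2 fold change was 0.28 ± 0.06, a level 21.1% higher, with an adjusted p of 0.0158 in edgeR's quasi-likelihood test. The call was lost without Cre+ replicate 1 (0.0705) or Cre- replicate 1 (0.0707).

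Pld3 was by far the most abundant gene of the set, at a mean of 1124 FPKM, and made up 98.2% to 98.4% of the summed FPKM of the 4 Pld genes in every library. Despite its name it encodes a lysosomal exonuclease, as does Pld4. Pld3 was at 3386, 3399 and 3384 CPM in Cre- and 3185, 3180 and 3469 CPM in Cre+ cultures. Cre+ replicate 3 was the highest of all and the other Cre+ cultures the lowest, and the log2 fold change was -0.05 ± 0.04. Pld4 was at -0.11 ± 0.06 and the classical phospholipases D, Pld1 and Pld2, at -0.05 ± 0.12 and -0.04 ± 0.11.

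**Figure D4:**
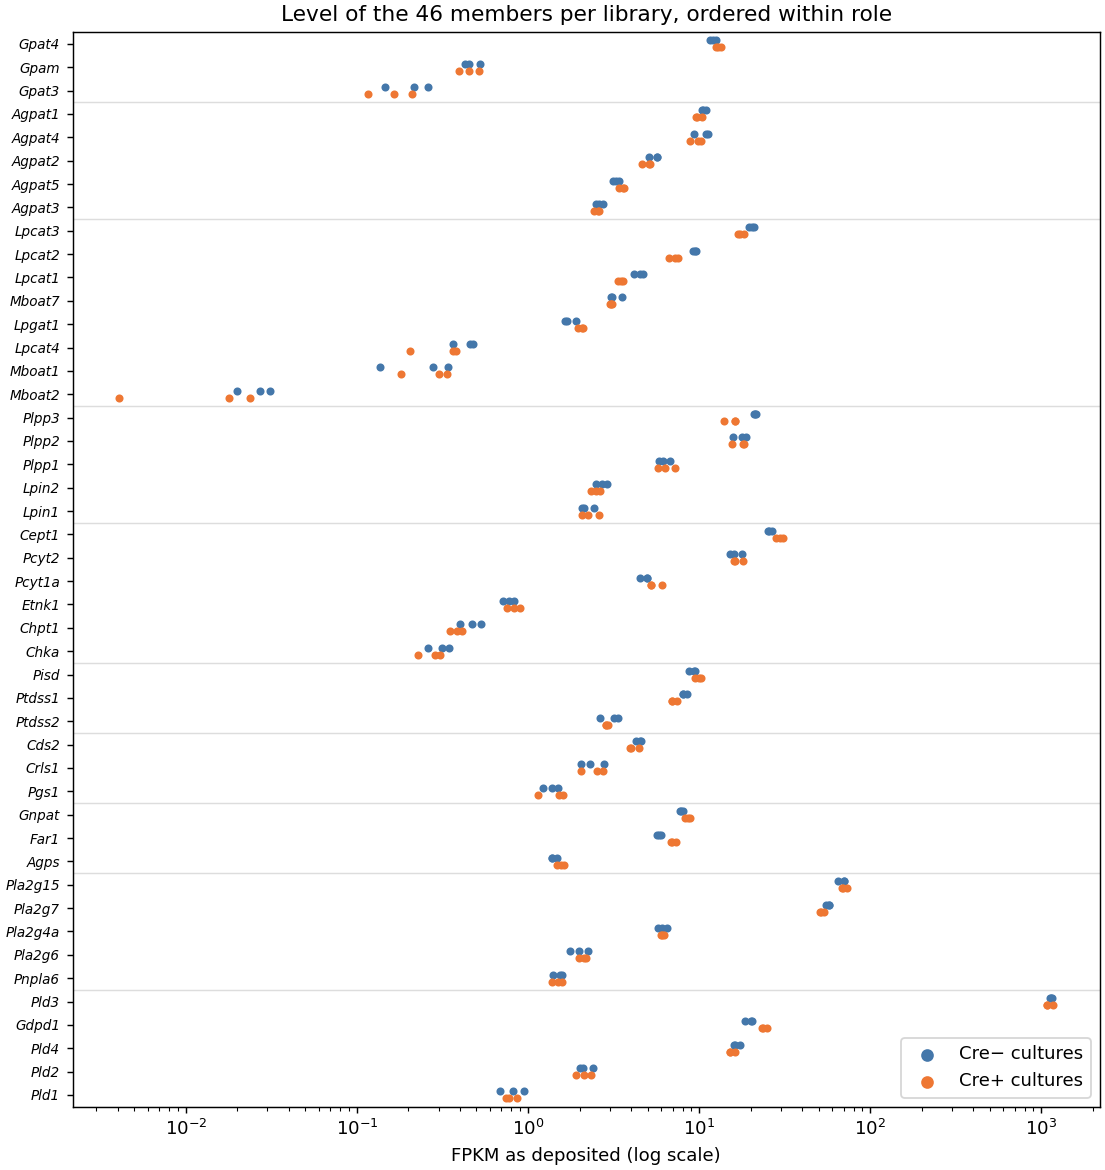
FPKM as deposited (x axis, log scale) of all 46 genes in each library, blue points being Cre- and orange points Cre+ cultures, with lines between roles in the order of the text. Levels run from 0.0206 FPKM (mean over the 6 libraries) for Mboat2 to 1124 for Pld3, a range far wider than any difference between the groups.

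Levels were compared between genes per length, as FPKM. After Pld3, the highest means over the 6 libraries were 69.4 FPKM for Pla2g15, 54.5 for Pla2g7, 27.7 for Cept1, 21.8 for Gdpd1, 18.9 for Lpcat3 and 18.4 for Plpp3. The called genes Lpcat2, Far1 and Lpcat1 were lower, with means of 8.29, 6.44 and 3.97 FPKM. The lowest tested gene was Mboat1, with a mean of 0.262 FPKM.

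A further list of 56 genes of glycerophospholipid metabolism outside the set gave the wider pathway. Of these, 40 were tested, and 3 (7.5%) were called, all lower in Cre+ cultures, beside the 5.07% of all genes. Their median log2 fold change was -0.06, with 17 above 0 and 23 below, and the other 16 genes were under the filter. Gde1, a glycerophosphodiesterase of the same family as Gdpd1, was at 99.5, 123 and 103 CPM in Cre- and 90.7, 76.7 and 88.7 CPM in Cre+ cultures. It fell where Gdpd1 rose, with a log2 fold change of -0.35 ± 0.08 and an adjusted p of 0.0173 in edgeR's quasi-likelihood test, and Cre- replicate 2 stood above the other controls. Of its exonic bases 13.5% are shared with other genes.

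Plbd2, a lysosomal phospholipase B-like protein, was at 29.4, 26.9 and 27.7 CPM in Cre- and 22.8, 24.6 and 21.0 CPM in Cre+ cultures. Lypla2, an acyl-protein thioesterase with lysophospholipase activity, was at 69.3, 76.7 and 80.4 CPM in Cre- and 64.4, 65.6 and 64.0 CPM in Cre+ cultures. The groups did not overlap for either gene. Log2 fold changes were -0.29 ± 0.08 for Plbd2 and -0.22 ± 0.06 for Lypla2, with adjusted p of 0.0426 and 0.0428 in edgeR's quasi-likelihood test. The count of 3 became 0 without Cre- replicate 2, 1 without Cre- replicate 3 and 1 without any 1 of the Cre+ replicates 1, 2 and 3.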

How the data were processed

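RNA was measured in 6 libraries of cultured microglia, 3 per group, made with a SMARTer kit that does not mark strand. The authors aligned reads with STAR 2.7.9a to GRCm38 and counted them per gene with featureCounts 2.0.3, per the submitters' processing notes, and deposited raw counts with CPM and FPKM columns for each library. Counts were tested here. FPKM as deposited by the authors served to compare levels between genes, and CPM values in the text were recomputed on TMM library sizes (on total counts for genes below the filter), with the deposited CPM used as a check.

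Genes not above 1 CPM in at least 4 libraries were removed, as in the methods of the study. Those methods also removed ribosomal genes without defining them, taken here as genes of rRNA biotype. The main test was edgeR 4.0.16 (R 4.3.3), glmQLFit and glmQLFTest, two-sided, with TMM normalization, Benjamini-Hochberg adjustment over the 11429 genes and a threshold of 0.05, in place of the voomWithQualityWeights fit of the study, which was run as an alternative with limma 3.58.1. SE was taken from the F statistic (size of the change over the root of F). The common dispersion of 0.01002 corresponds to a coefficient of variation of 10%. The fits were tested on counts simulated with the common dispersion for every gene. There the main test recovered 91% of 200 genes changed by 0.6 on the log2 scale. At a change of 0.3 it recovered 6%, so small changes were mostly missed in that setting. Members and lists were chosen with earlier results of these data known. Library values are given for called genes and for the most abundant gene of each role by mean FPKM, and a few others were named after their values were seen.

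Alternatives were other normalizations, filters and tools (DESeq2 1.42.0), a replicate block and leaving out each library. Libraries with the same replicate number did not deviate together (correlations 0.0144, -0.0205 and -0.0445). No libraries looked like duplicates, since count differences between libraries of a group gave a chi-square of 18.8 to 25.8 per degree of freedom. Promoter windows were from RefSeq.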

Additional observations from a re-analysis of the deposited data

How the results depend on the processing

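Plpp3 and Lpcat2 kept their direction and call under every alternative run, and no called gene of the set changed direction. The set had 5 to 8 called genes under alternatives that kept all libraries and 3 to 5 with a library left out. The balance of directions was less steady, with 2 higher and 4 lower in the main fit. It was 3 and 3 with filterByExpr and 4 and 2 with no filter. In those fits the median log2 fold change of the 11429 genes moved from 0.00 to 0.05 and 0.08. Without Cre+ replicate 1 the balance was 0 and 4, and without Cre+ replicate 2 it was 3 and 2. Called genes over the whole table numbered 579, with 886 by DESeq2's Wald test, 1528 with no expression filter and 317 to 448 with a library left out. With a replicate block, 430 genes were called in all, 5 of the set and 1 of the other pathway genes, and Lpcat3 lost its call (adjusted p 0.0797). Since replicate numbers only name the cultures, this fit is not a paired analysis. The other pathway count was 0 with filterByExpr and 0 to 3 with a library left out. The log2 fold change of Nr1d1 ran from -0.98 to -0.50 with a library left out.

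Among uncalled genes, signs near 0 turned. With no expression filter, where the median of the 11429 genes moved to 0.08, log2 fold changes became 0.03 for Gpam, 0.02 for Agpat3, 0.06 for Plpp2, Pla2g4a and Pnpla6, and 0.03 for Pld1, Pld2 and Pld3. With filterByExpr, where that median moved to 0.05, they became 0.02 for Plpp2, 0.03 for Pla2g4a and 0.02 for Pnpla6. With a library left out the ranges were -0.15 to 0.04 for Gpam, -0.19 to 0.39 for Mboat1, -0.05 to 0.13 for Lpin1, -0.06 to 0.11 for Plpp1, -0.08 to 0.05 for Plpp2, -0.02 to 0.09 for Pcyt2, -0.06 to 0.17 for Pgs1 and Crls1, -0.05 to 0.02 for Pla2g4a, -0.04 to 0.15 for Pla2g6, -0.02 to 0.06 for Pla2g15, -0.07 to 0.03 for Pnpla6, -0.15 to 0.06 for Pld1 and -0.12 to 0.04 for Pld2. Cept1 was called by DESeq2 (0.0189), with filterByExpr (0.0378), on library totals (0.0438) and with no filter (0.00867). It was not called with voomWithQualityWeights (0.0544), DESeq2 size factors (0.0603) or a replicate block (0.109). Ptdss1 was called by DESeq2 (0.023), and Pcyt1a with no filter (0.032). Lpcat1 was short of the threshold with no filter (0.0501). The causes of these shifts were not tested. With 3 cultures a group, changes of a few SE could be missed, so a gene that was not called is not shown to be unchanged.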

Other observations

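Genes that handle platelet-activating factor, a signalling phospholipid of inflammatory cells, were read side by side after their values were seen, so the grouping has no test. Lpcat1 and Lpcat2, whose enzymes can make it, were lower in Cre+ cultures, as given in the report. The call of Lpcat1 held in only 2 of the fits that left out a library. Genes of other steps in making platelet-activating factor were left out of this grouping. Of the genes whose enzymes break it down, none was called. The log2 fold change (± SE) was -0.14 ± 0.05 for the secreted Pla2g7. For the intracellular acetylhydrolases it was 0.12 ± 0.05 for Pafah1b2, -0.08 ± 0.08 for Pafah1b3 and 0.03 ± 0.11 for Pafah2. Pafah1b1, which encodes a regulatory subunit without hydrolase activity, was at 0.06 ± 0.08. Pafah1b2 was at 67.2, 66.7 and 64.9 CPM in Cre- and 72.5, 71.9 and 71.0 CPM in Cre+ cultures. Its groups do not overlap, and the adjusted p was 0.223 in edgeR's quasi-likelihood test. The groups of Pla2g7 do not overlap either, with Cre+ cultures lower. Over all genes tested, 24.0% do not overlap in either direction.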
